A study of Mus musculus with 16 samples.

Results

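The genes described here are 42 lysosomal genes out of 49166 genes measured in cultured mouse neural progenitor cells: 10 proteases, 11 glycosidases, 5 sulfatases, 8 enzymes and cofactors of lipid breakdown, 7 membrane proteins and progranulin. They were taken as a fixed list of textbook lysosome genes, and no measured value serves as a threshold for membership. The list was nevertheless drawn up with fold changes of these cultures known, among them the rises of Ctsl and Gaa with enzalutamide. The comparisons with enzalutamide are therefore given for the list as a description, and nothing is read from the number of its genes that passed. Adjusted p-values of single members in those comparisons carry the same limit. All 42 genes had enough reads to be tested.

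The cells were grown from the cortex of mouse embryos at E18.5 and are labelled neuronal progenitors. All 16 cultures had been infected with a lentivirus that expresses Cas9 and a puromycin resistance gene, were selected with puromycin for 48 h and were then expanded. In the wild-type (WT) group the virus carried Cas9 without a guide RNA. In the 3 knockout (KO) groups it also carried a guide against Chd1, which encodes a chromatin remodeller mutated in Pilarowski-Bjornsson syndrome. The 4 groups of 4 libraries were WT with DMSO, KO with DMSO, KO with 10 nM dihydrotestosterone (DHT, an androgen), and KO with 10 nM DHT plus 10 µM enzalutamide (ENZ, an antagonist of the androgen receptor). DMSO or ENZ was given 30 min before DHT, and the cells were collected after a further 24 h. The biological replicates came from embryos of 2 litters. The labels describe selection of the infected cultures and no cloning step. DHT was given to KO cells alone, and ENZ was always combined with DHT.

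Lysosomes are acidic organelles in which hydrolases take proteins, glycans and lipids apart. Most soluble hydrolases receive a mannose-phosphate tag in the Golgi and are carried to the lysosome by receptors that bind it, while membrane proteins such as Lamp1 line the organelle and a proton pump, the V-ATPase, keeps it acid. Many of these genes can be switched on together by TFEB and its relatives, transcription factors that bind an E-box motif (CACGTG) near gene starts and are held in the cytoplasm when the kinase mTORC1 is active. Loss of single members causes storage diseases, such as Tay-Sachs disease (HEXA), Pompe disease (GAA) and neuronal ceroid lipofuscinoses (TPP1, CTSD, PPT1, CLN3).

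The promoter sequences below show that motif in members called higher with ENZ once replicate numbers were taken into account (Gaa, Arsa, Ctsa and Ctsd), and in Mcoln1 and Cln3, whose groups did not overlap in that comparison. Ctsl, also called, and Lamp1, whose groups also did not overlap, hold CACGTG too and are not printed here. RefSeq promoters (build GRCm38.p6, from 250 bases before to 50 after each gene start) were found for 37 of the 42 genes. Each line gives bases upstream of the start, 5′ to 3′ on the gene's strand, and the capitals mark an E-box with the 2 bases on either side. The lines of Mcoln1 and Cln3 each hold another CACGTG, left in lower case. The windows are chr11:119267782-119267868, plus strand for Gaa, chr15:89477425-89477481, minus strand for Arsa, chr2:164833720-164833772, plus strand for Ctsa, chr7:142387880-142387966, minus strand for Ctsd, chr8:3500433-3500518, plus strand for Mcoln1 and chr7:126583312-126583398, minus strand for Cln3.
Gaa: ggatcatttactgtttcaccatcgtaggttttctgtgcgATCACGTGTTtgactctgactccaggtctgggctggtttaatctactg
Arsa: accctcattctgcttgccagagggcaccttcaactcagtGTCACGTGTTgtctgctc
Ctsa: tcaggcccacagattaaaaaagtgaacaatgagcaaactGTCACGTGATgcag
Ctsd: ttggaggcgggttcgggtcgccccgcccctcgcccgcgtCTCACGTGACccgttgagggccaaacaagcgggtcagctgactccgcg
Mcoln1: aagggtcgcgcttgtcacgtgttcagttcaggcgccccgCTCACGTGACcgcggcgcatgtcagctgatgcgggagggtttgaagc
Cln3: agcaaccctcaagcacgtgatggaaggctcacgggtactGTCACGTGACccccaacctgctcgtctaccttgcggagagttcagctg

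The E-box TCACGTG, read on either strand, was in the promoters of 12 of the 37 matched members (32.4%), against 4.29% of 27025 genes in the promoter table. The shorter CACGTG, contained in the former, was in 14 members (37.8%) and 8.09% of genes. The longer palindrome TCACGTGA, which holds both, was in 5 members (13.5%; 1.12% of genes). The 12 members with TCACGTG were Arsa, Cln3, Ctsa, Ctsd, Gaa, Gla, Glb1, Lamp1, Lgmn, Mcoln1, Naglu and Sgsh, and with CACGTG alone came Ctsf and Ctsl. In KO DHT+ENZ against KO DHT the median log2 fold change was 0.25 for the 12 genes with TCACGTG and 0.15 for the 25 without it. The corresponding medians were 0.13 and 0.14 in KO DHT+ENZ against KO DMSO, -0.08 and -0.06 in KO DHT against KO DMSO, and 0.04 and 0.12 in KO DMSO against WT DMSO. The windows of Hexa, Npc2, Tpp1 and Cd63, whose values are described below, did not hold CACGTG. Nor did those of Psap, Lamp2, Man2b1 and Neu1, whose groups also did not overlap in KO DHT+ENZ against KO DHT. Ctsa, Cln3 and Lgmn each had another promoter in the table without it. These matches are a description of letters in the reference, and binding was not measured.

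WT DMSO replicate 1 was the shallowest library at 20.2 M estimated counts, and the other 15 held 31.8 to 36.9 M. Chd1 RNA was at 60.2 to 73.8 counts scaled to library size (CPM) in WT DMSO and at 59.9 to 77 CPM over the KO libraries. A short edit by Cas9 can leave the RNA level as it was, so this level does not check the genotype. Of 12 progenitor markers all passed the filter on low counts, led by Nes (2180 to 2910 CPM), Vim (1990 to 3210 CPM) and Fabp7 (1180 to 2010 CPM), while Hes5 (0.224 to 1.15 CPM) and Prom1 (2.4 to 7.32 CPM) were low. Libraries with the same replicate number resembled each other in all 4 comparisons. Libraries with different numbers were not compared in this way, so this does not show that the number pairs cultures. Results with that number as a block in the model are given beside those without it. Unless another test is named, p-values below are from edgeR's quasi-likelihood test over 16971 genes with Benjamini-Hochberg adjustment, and a gene was called at an adjusted p under 0.05.

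Per transcript length, the most abundant members were Psap, the precursor of the saposins that present lipids to hydrolases, and the membrane proteins Lamp1 and Cd63. Psap had a median of 823 TPM over the 16 libraries (691 to 961 TPM), Lamp1 489.8 TPM and Cd63 489.6 TPM. These were followed by the aspartic protease gene Ctsd (429 TPM) and by Ctsb (157 TPM), Lamp2 (142 TPM), Ctsl (138 TPM) and the cholesterol carrier gene Npc2 (116 TPM). The range of Lamp1 (332 to 592 TPM) overlapped those of Cd63 (424 to 636 TPM) and Ctsd (387 to 512 TPM), so their order was not separated by the spread between libraries.

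The least abundant member was Gla, alpha-galactosidase A, with a median of 1.47 TPM and 0 estimated counts in WT DMSO replicate 4. Above it came Galns (3.71 TPM), Idua (4.29 TPM) and Manba (8.06 TPM). Sulfatases were the lowest class, from 3.71 TPM for Galns to 21.7 TPM for Ids, an enzyme of heparan and dermatan sulfate breakdown. Summed over 41 members without Neu1, which 1 library distorts as described further on, the levels averaged 3863 ± 247 TPM for WT DMSO (SD, n = 4 for this and the next 3 values). They averaged 4097 ± 146 TPM for KO DMSO, 4088 ± 158 TPM for KO DHT and 4582 ± 283 TPM for KO DHT+ENZ. The 4 KO DHT+ENZ libraries, at 4817, 4385, 4293 and 4833 TPM for replicates 1 to 4, were each above every other KO library, the highest of which was KO DMSO replicate 1 at 4268 TPM. WT DMSO replicate 4 at 4223 TPM was also below them.

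**Figure D1:**
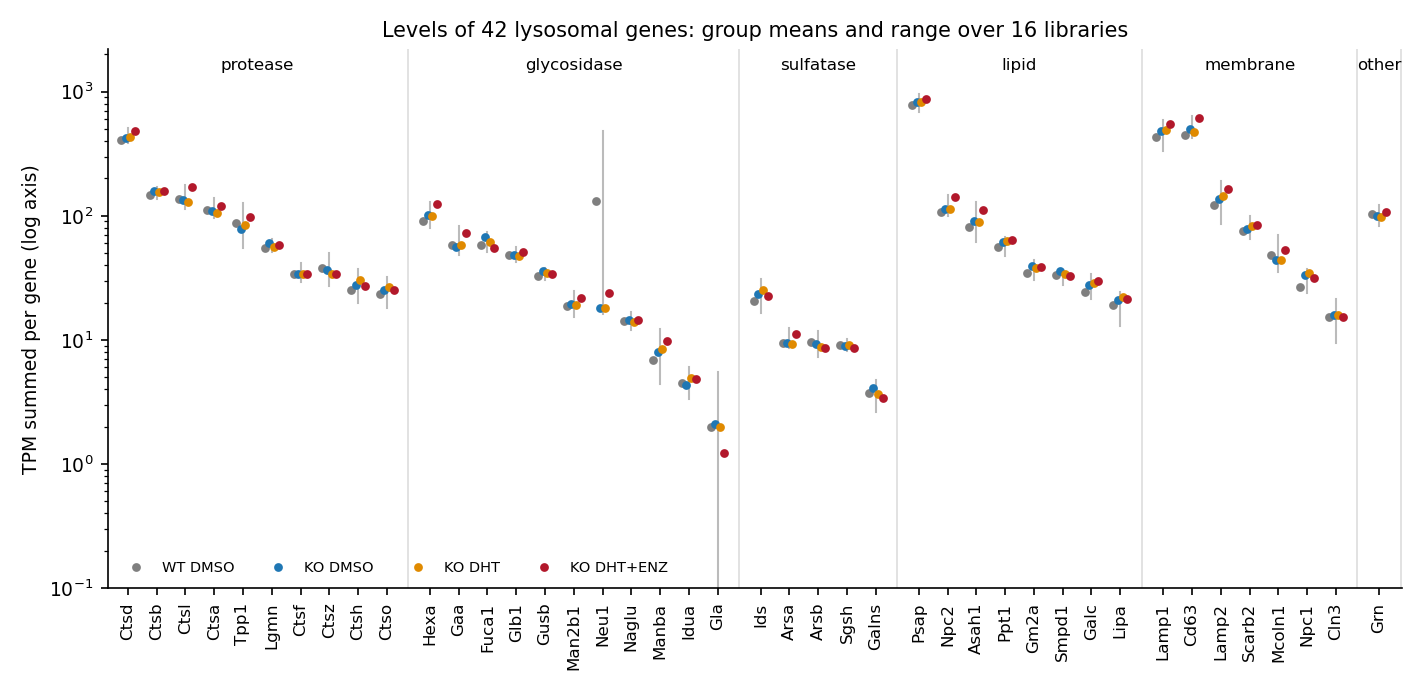
Levels of the 42 lysosomal genes in TPM summed per gene (vertical log axis), grouped by class and ordered by level. Points are means of 4 libraries in each group, in the colours of the key, and grey lines run from the lowest to the highest of 16 libraries. Psap stands highest and Gla lowest, where the line runs off the axis because WT DMSO replicate 4 holds 0 estimated counts. The WT DMSO mean of Neu1 lies apart from its other 3 means.

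KO DMSO was set against WT DMSO to see how cells given the Chd1 guide differed from cells without it. Of the 42 members 0 were called, and of 16971 genes 0 (0%), with or without the replicate block. At an unadjusted p under 0.05 were 3 members without the block and 6 with it, and DESeq2 (0% of all genes) and limma-voom called 0. Most fold changes were small and positive. The log2 fold change was above 0 for 32 of 42 members with a median of 0.11, where the median of all genes tested was 0.00, and 19 members lay within 0.1 of 0. Higher in 4 of 4 same-numbered pairs were 10 members, against 6.24% of all genes, and 0 were lower in 4 of 4, against 6.57%.

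Ctsh, a cysteine protease that removes amino acids from protein ends, was the member whose groups did not overlap here (1 of 42; 0.613% of all genes were likewise higher). It was known to lie near the threshold when the list was made. It was at 15.2, 15.6, 19.7 and 20.2 CPM in WT DMSO replicates 1 to 4 and at 23.1, 21.7, 24.7 and 23 CPM in KO DMSO. All KO DMSO libraries were thus above all WT DMSO libraries, the nearest being WT replicate 4 and KO replicate 2. The log2 fold change was 0.39 (SE 0.10), and it did not pass in edgeR (adjusted p = 1; 0.475 with the block). In the other KO groups Ctsh stayed at 21.1 to 23.1 CPM with DHT and 21.8 to 25.5 CPM with DHT and ENZ, also above the WT libraries. Those groups had other treatments and are not repeats of this comparison.

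Lipid genes were above 0 in 8 of 8 cases in KO DMSO against WT DMSO, with a class median of 0.14, and 4 of them were higher in 4 of 4 pairs. For several, the distance came from WT DMSO replicate 1. Lipa, the acid lipase, was at 25.3, 42.7, 41.2 and 42.7 CPM in WT DMSO against 38.4 to 44.7 CPM in KO DMSO, and Asah1, acid ceramidase, at 103, 159.6, 161 and 150.2 CPM against 145 to 169 CPM. The glycoprotein gene Lamp2 was likewise at 144 CPM in that library and at 244 to 309.7 CPM in the other WT libraries. That library also had the least depth, for which CPM are scaled, and the reason for its low values was not tested. In pairs 2 to 4 the log2 differences of Lipa were 0.06, 0.04 and -0.15, against 0.71 in pair 1.

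KO DHT was then set against KO DMSO, which asks what androgen did to these genes in Chd1-targeted cells. Of the 42 members 0 were called with or without the block, as were 0 of 16971 genes (0%). At an unadjusted p under 0.05 were 1 member without the block and 4 with it, and DESeq2 (0.003% of all genes) and limma-voom called 0. Most log2 fold changes were slightly below 0. Of the 42 members 33 had a log2 fold change below 0, with a median of -0.07, and 28 lay within 0.1 of 0. Lower in 4 of 4 pairs were 14 members, where 13.3% of all genes were, and 0 were higher in 4 of 4, where 11.3% were.

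By class the medians with DHT ran from -0.02 for membrane proteins to -0.13 for sulfatases. Mcoln1, a cation channel that releases calcium from the lysosome, was the member whose groups did not overlap (1 of 42; 0.825% of all genes were likewise lower). Its values were 49.1, 50.6, 51.8 and 48.9 CPM in KO DMSO and 44.5, 47.9, 48.7 and 46 CPM in KO DHT, with the nearest libraries KO DHT replicate 3 and KO DMSO replicate 4. It did not pass in edgeR (-0.10, SE 0.09; adjusted p = 1). The member furthest below 0 was Cln3, a lysosomal membrane protein gene, at -0.23 (SE 0.10; adjusted p = 1, edgeR). Long transcripts were higher with DHT in the same libraries. Over 9747 genes, transcript length had a rank correlation with the log2 difference of 0.10, 0.66, 0.53 and 0.41 in pairs 1 to 4, a description across genes of single libraries. With such trends removed and the block in the model, the median of the members was -0.04.

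KO DHT+ENZ was set against KO DHT to see the effect of the receptor antagonist on top of androgen. Most lysosomal genes had higher values with ENZ, by similar medians in each replicate, and 0 of the 42 were called lower. Mitosis genes were lower in the same libraries, with values given further on, and their part in these results was not tested. Without the block 2 of 42 members were past the threshold, where 0.265% of all genes were called and 0.0766% were called higher. These were Ctsl and Gaa, whose rises were known when the list was made, so that count is no test of them. With the block 10 members were called, all higher, where 3.48% of all genes were called and 1.57% were called higher. They were Ctsl, Tpp1, Ctsa and Ctsd of the proteases, Gaa and Hexa of the glycosidases, the sulfatase Arsa, Npc2 and Asah1 of the lipid genes, and Cd63 of the membrane proteins. Since the list was made with this comparison in view, these shares are not set against each other. Where a gene is said below to have risen with the block, it was called by that model. Its adjusted p-value is no independent test, for the same reason.

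The log2 fold change with ENZ was above 0 for 37 of 42 members, with a median of 0.17, and the median over all genes tested was 0.00. In same-numbered pairs 1 to 4 the median over the members was 0.18, 0.23, 0.16 and 0.21. Higher in 4 of 4 pairs were 27 members, where 14% of all genes were, and 0 were lower in 4 of 4, where 14.2% were. In 16 of 42 members all KO DHT+ENZ libraries lay above all KO DHT libraries, where 3.08% of all genes did so. By class the medians were 0.26 for membrane proteins, 0.20 for glycosidases, 0.17 for proteases, 0.15 for lipid genes and 0.06 for sulfatases.

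**Figure D2:**
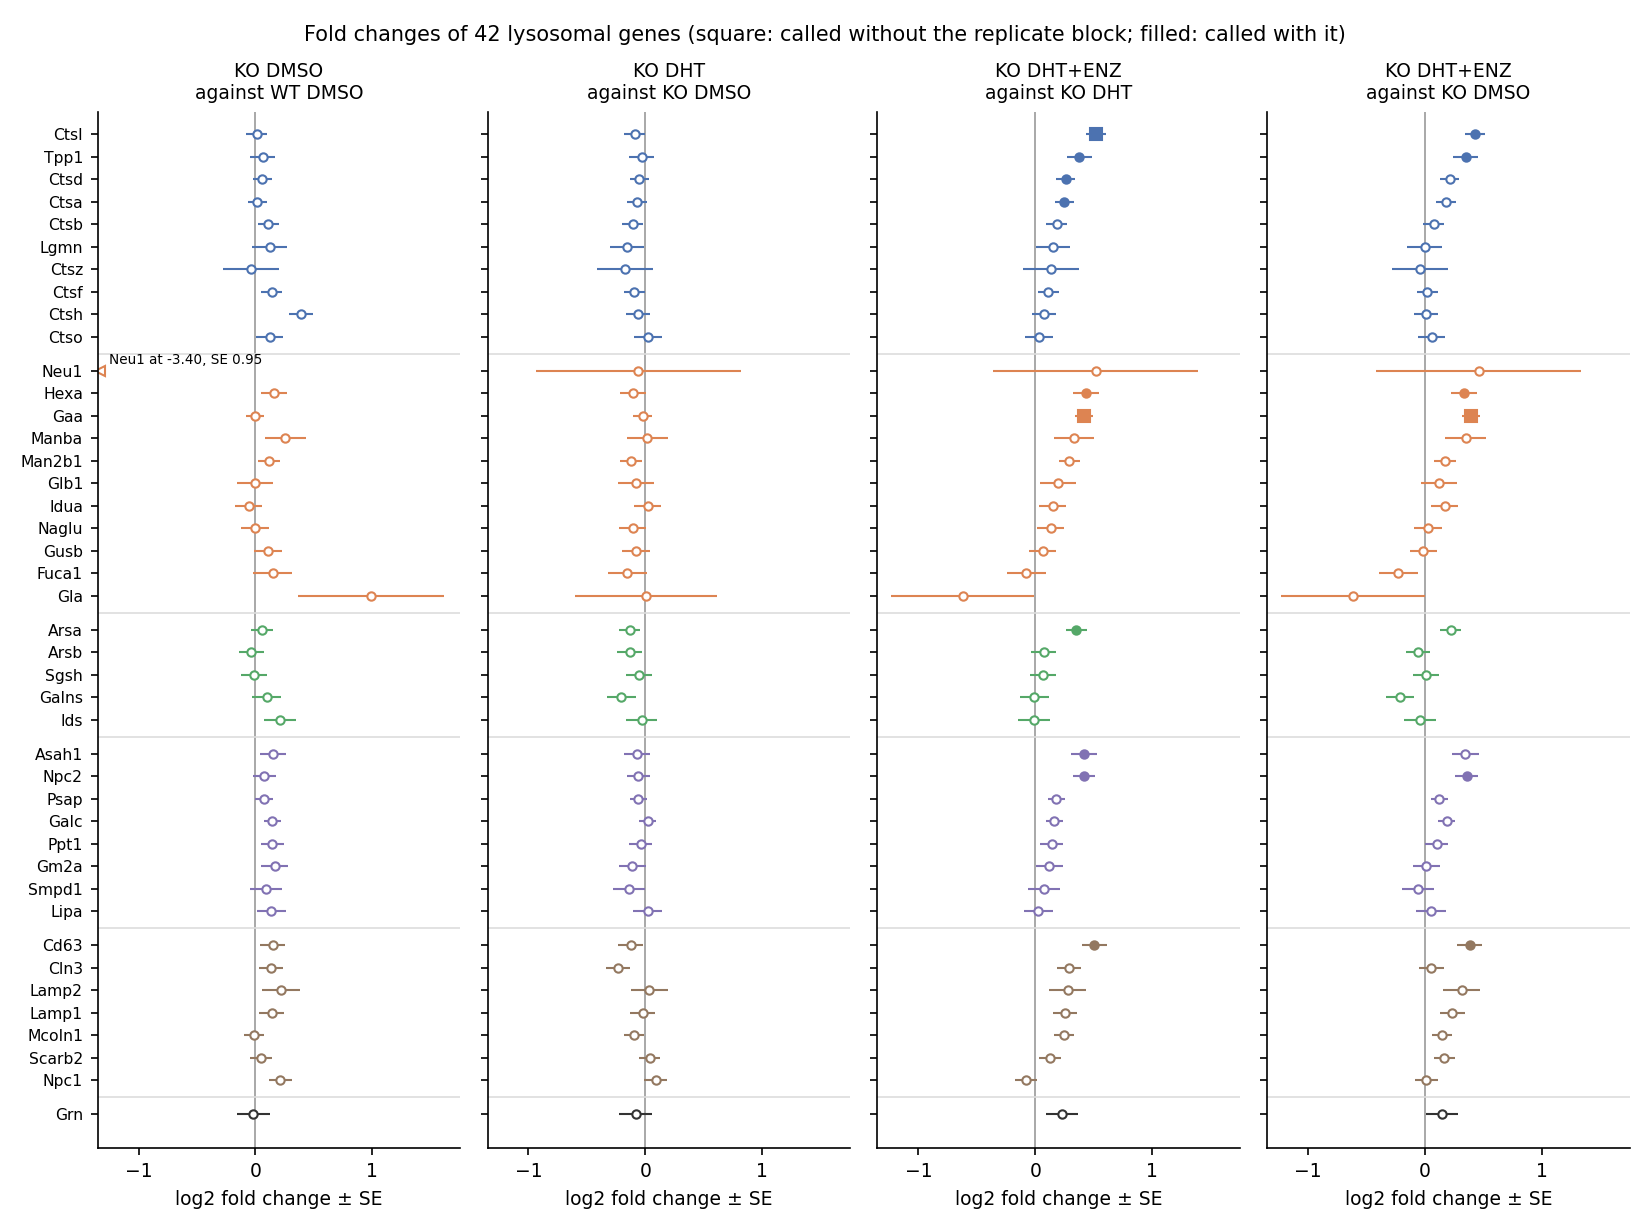
Log2 fold changes with standard errors (horizontal axis) of the 42 genes in the 4 comparisons, coloured and grouped by class, with 4 libraries in each group. Squares were called without the replicate block and filled symbols with it. Called genes appear only in the 2 comparisons of KO DHT+ENZ, all to the right of 0. Neu1 lies off the axis in KO DMSO against WT DMSO, at the value printed.

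Among the proteases, 10 of 10 had fold changes above 0 and 4 were called with the block. Ctsl, the broad endopeptidase cathepsin L, was at 131, 145, 133 and 128 CPM in KO DHT replicates 1 to 4 and at 177, 214, 202 and 178 CPM in KO DHT+ENZ. It was at 141, 152, 154 and 126 CPM in KO DMSO and at 135, 147, 154 and 134 CPM in WT DMSO. The 4 ENZ libraries thus stood above the other 12, which overlapped each other. The log2 fold change against KO DHT was 0.52 (SE 0.09); it is given without a test because this rise was known beforehand.

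Tpp1, which trims tripeptides from protein ends, was at 118, 149, 123 and 153 CPM in KO DHT and at 184, 174, 149.6 and 197 CPM in KO DHT+ENZ. In the vehicle groups it was at 150.3, 126, 128 and 149.9 CPM in KO and 129.6, 136, 124 and 141 CPM in WT. ENZ replicate 3 was below KO DHT replicate 4, so the groups overlapped, while ENZ was higher in each pair. Tpp1 rose in edgeR's model with the block (0.38, SE 0.08; adjusted p = 0.0148; 0.225 without).

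Ctsa, a carboxypeptidase that also holds the sialidase and beta-galactosidase in a stable complex, was at 118, 124, 129 and 114 CPM in KO DHT and at 136, 151, 150.0 and 140.0 CPM in KO DHT+ENZ. Its values were 124, 128, 139.5 and 119 CPM in KO DMSO and 130.0, 117, 143 and 115 CPM in WT DMSO. ENZ libraries lay above all KO DHT libraries, while KO DMSO replicate 3 and WT DMSO replicate 3 reached into their range. Ctsd, the main aspartic protease of lysosomes, was higher in all ENZ libraries (651 to 724 CPM) than in KO DHT (530.0 to 593 CPM). Both rose in edgeR with the block, at adjusted p = 0.0288 for Ctsa (0.25, SE 0.06) and 0.0315 for Ctsd (0.26, SE 0.06), and neither passed without it.

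The other 6 proteases did not pass. Ctsb, an abundant cysteine protease, had a fold change of 0.18 (SE 0.09) and was higher in each pair by 0.14 to 0.21. The asparaginyl endopeptidase gene Lgmn (0.15), the carboxypeptidase gene Ctsz (0.13), Ctsf (0.11), Ctsh (0.07) and Ctso (0.03) were closer to 0. Ctsz differed more between replicates than between groups, with 22.6, 37.6, 27.3 and 22.8 CPM in KO DHT and 21.5, 45.9, 28.2 and 25.1 CPM in KO DHT+ENZ, replicate 2 being highest in every group.

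**Figure D3:**
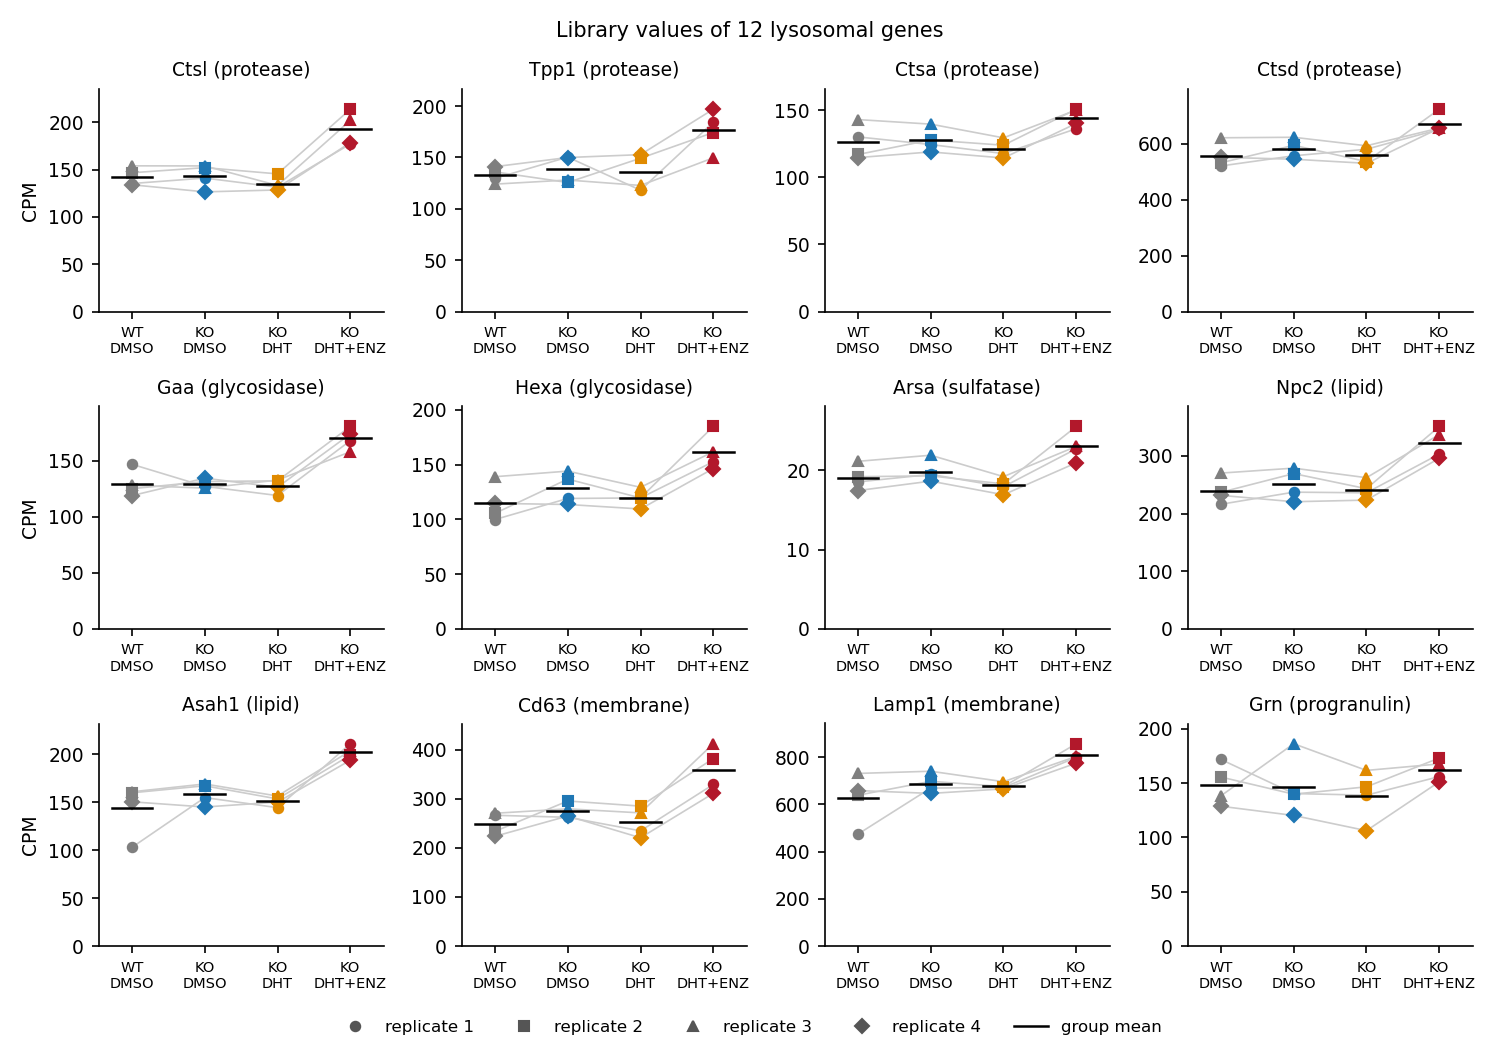
CPM (vertical axes, each from 0) of 12 lysosomal genes in the 16 libraries. Symbols mark replicates, grey lines join libraries with the same replicate number and black bars are group means. For Ctsl, Gaa, Npc2, Cd63, Asah1, Ctsd, Hexa and Lamp1 the 4 KO DHT+ENZ libraries lie above the other KO libraries. Asah1 and Lamp1 are low in WT DMSO replicate 1.

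Of the 11 glycosidases 9 were above 0 and 2 were called with the block. Gaa, which frees glucose from glycogen, was at 119, 132, 133 and 126 CPM in KO DHT and at 168, 181, 158 and 174 CPM in KO DHT+ENZ. It was at 127, 132, 126 and 135 CPM in KO DMSO and at 147, 125, 128 and 119 CPM in WT DMSO. The ENZ libraries were above the other 12, with WT DMSO replicate 1 the nearest below. Against KO DHT the log2 fold change was 0.42 (SE 0.08), given without a test for the same reason as that of Ctsl.

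Hexa encodes the alpha subunit of the hexosaminidase that removes an amino sugar from the ganglioside GM2. It was at 119.6, 119.6, 129 and 109.5 CPM in KO DHT and at 153, 185, 162 and 146 CPM in KO DHT+ENZ, with 119, 137, 144 and 114 CPM in KO DMSO and 99.8, 106, 139 and 115 CPM in WT DMSO. The lowest ENZ library was above every other library. Hexa rose with the block (0.43, SE 0.08; edgeR adjusted p = 0.00922, against 0.164 when the block was omitted).

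Man2b1, an alpha-mannosidase, was at 39.7, 47.6, 53 and 44.1 CPM in KO DHT and 58.4, 56.1, 55 and 56.4 CPM in KO DHT+ENZ. The values were 47.2, 49.4, 53.9 and 50.8 CPM in KO DMSO and 53.4, 42.9, 44.9 and 44.6 CPM in WT DMSO. Its ENZ libraries were close to each other and above the rest, yet in pair 3 the distance was only 0.05 on the log2 scale, and it did not pass (0.29, SE 0.09; adjusted p = 0.088 with the block, edgeR). The beta-mannosidase gene Manba (0.33), the beta-galactosidase gene Glb1 (0.20), Idua (0.15), Naglu (0.13) and the beta-glucuronidase gene Gusb (0.06) did not pass either. Below 0 were the fucosidase gene Fuca1 (-0.08, SE 0.17) and Gla (-0.62, SE 0.61), the latter on 1.81 to 3.17 CPM with ENZ and 2.34 to 5.82 CPM without.

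Neu1, the lysosomal sialidase, is named here after its values were seen. It had the same fold change as Ctsl to 2 decimals (0.52) but an SE of 0.88, and did not pass (adjusted p = 1; 0.848 with the block, edgeR). Its values were 25.7, 30.8, 31.4 and 27.2 CPM in KO DHT and 42, 42, 41.7 and 38.9 CPM in KO DHT+ENZ, so all ENZ libraries were higher, and in KO DMSO it was at 28 to 33 CPM. In WT DMSO replicate 1, however, it was at 1180 CPM, against 27.7, 31.4 and 29 CPM in WT replicates 2 to 4, and this library enters the estimate of spread. Without it Neu1 had a log2 fold change of 0.52 with an SE of 0.08 and was called (adjusted p = 0.00911; 5e-05 with the block, edgeR). The same library set the log2 fold change of Neu1 in KO DMSO against WT DMSO, which was -3.40 (SE 0.95) with it and 0.03 (SE 0.09) without it.

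The reads of that library belonged to 1 transcript. The retained-intron transcript Neu1-202 held 25320 estimated counts there and the protein-coding Neu1-201 held 64. In the other 15 libraries Neu1-201 was at 20.4 to 39.6 CPM and Neu1-202 at 2.28 to 6.39 CPM. In KO DHT+ENZ the coding transcript was at 35.6, 39.6, 36.3 and 33.8 CPM, and in KO DHT at 20.4, 27.4, 27.4 and 21.9 CPM, so the groups did not overlap for it either. What put those counts on Neu1-202 in a single library was not tested.

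**Figure D4:**
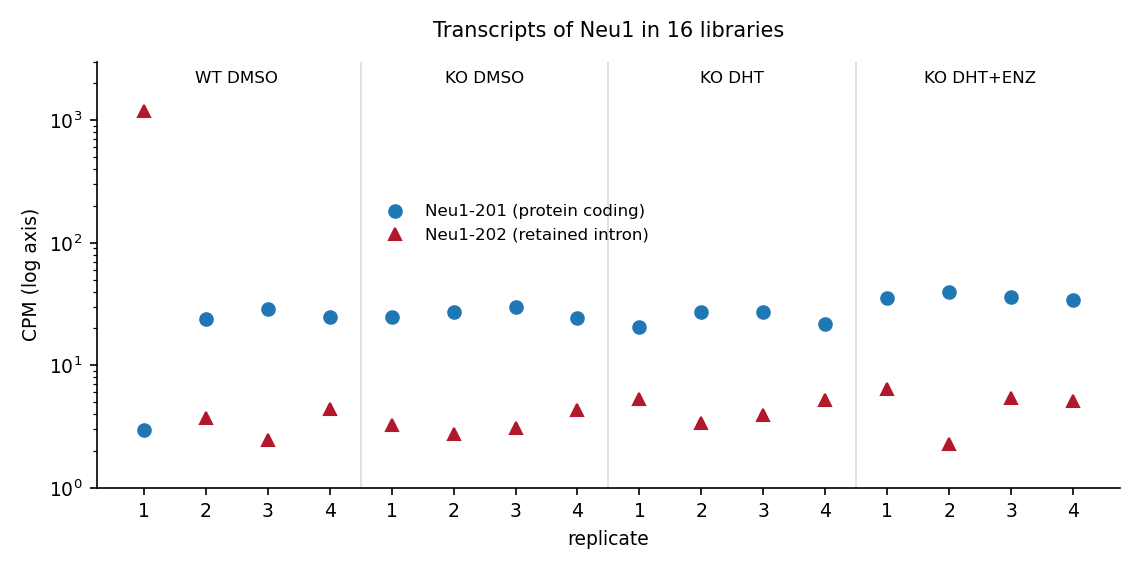
CPM (vertical log axis) of the protein-coding transcript Neu1-201 (circles) and the retained-intron transcript Neu1-202 (triangles) in the 4 replicates of each group. In WT DMSO replicate 1 Neu1-202 stands above 1000 CPM and Neu1-201 below 10. Elsewhere Neu1-201 is the higher of the pair, and highest in KO DHT+ENZ.

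Sulfatases, which remove sulfate from glycosaminoglycans and lipids, had the lowest class median. Arsa, which acts on the myelin lipid sulfatide, stood apart from the other 4. It was at 17.9, 18.3, 19.2 and 16.9 CPM in KO DHT and 22.7, 25.5, 23 and 20.9 CPM in KO DHT+ENZ, with 19.5, 19.3, 21.9 and 18.6 CPM in KO DMSO and 18.54, 19.2, 21.1 and 17.4 CPM in WT DMSO. ENZ libraries were above all KO DHT libraries, whereas KO DMSO replicate 3 and WT DMSO replicate 3 reached into their range. Arsa rose with the block (0.35, SE 0.07; edgeR adjusted p = 0.00927, against 0.177 when the block was omitted). It did not pass when protein-coding transcripts alone were summed (0.36, SE 0.11; edgeR adjusted p = 0.0767 with the block).

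Sgsh, which acts on heparan sulfate, was at 23.1, 27.5, 29.7 and 22.5 CPM in KO DHT and 24.5, 28.6, 27.9 and 26.5 CPM in KO DHT+ENZ, after 23.1, 27, 30.6 and 26.2 CPM in KO DMSO and 25.6, 28.9, 28.7 and 24.6 CPM in WT DMSO. Arsb, which acts on dermatan sulfate, was at 21.7, 24.6, 23.4 and 24.8 and 24.1, 23, 26.8 and 25.5 CPM in those KO groups with DHT, without and with ENZ. In KO DMSO Arsb was at 26.5, 23.3, 27.3 and 26.7 CPM and in WT DMSO at 32.7, 24.3, 22.9 and 26.5 CPM. For both genes the groups overlapped throughout, with fold changes of 0.06 and 0.07 against KO DHT. Galns and Ids stood at -0.01 (SE 0.12) and -0.01 (SE 0.14).

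In the lipid class 8 of 8 genes were above 0 and 2 were called with the block. Npc2, the soluble protein that picks up cholesterol inside the lysosome, was at 236, 243, 262 and 223 CPM in KO DHT and 303, 351, 337 and 296 CPM in KO DHT+ENZ. It was at 237, 269, 279 and 220.5 CPM in KO DMSO and 216, 237, 270.2 and 232 CPM in WT DMSO. Every ENZ library was above the 12 others. Npc2 rose with the block (0.42, SE 0.06; edgeR adjusted p = 0.00176, against 0.0971 when the block was omitted). Its membrane partner Npc1, which passes the cholesterol on, had a fold change of -0.08 (SE 0.10), with 85.3 to 110.0 CPM in KO DHT and 92 to 97 CPM with ENZ.

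Asah1, which splits ceramide, was at 144, 153, 156 and 149.9 CPM in KO DHT and 211, 199, 203 and 194 CPM in KO DHT+ENZ. All 4 ENZ libraries were above every other library, KO DMSO reaching 169 CPM at most. Asah1 rose with the block (0.42, SE 0.10; edgeR adjusted p = 0.0273, against 0.191 when the block was omitted) and also without it once WT DMSO replicate 1 was left out. Psap was at 1429, 1389, 1340.0 and 1362 CPM in KO DHT and 1507, 1570.0, 1589 and 1592 CPM in KO DHT+ENZ, with 1458, 1377, 1505 and 1414 CPM in KO DMSO and 1469, 1219, 1395 and 1379 CPM in WT DMSO. Its ENZ libraries were the 4 highest, the nearest being KO DMSO replicate 3. Psap did not pass: the fold change was 0.18 (SE 0.08) without the block, and the adjusted p was 0.113 with it (edgeR).

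The other 5 lipid genes did not pass. The galactosylceramidase gene Galc (0.16), the thioesterase gene Ppt1 (0.14) and the ganglioside activator gene Gm2a (0.12) were higher in each pair. The acid sphingomyelinase gene Smpd1 (0.08) and Lipa (0.03, SE 0.12) were not. Lipa stayed between 40.5 and 44.6 CPM in the 8 libraries with DHT.

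Of the membrane proteins 6 of 7 were above 0 and in 5 the ENZ libraries lay wholly above KO DHT, but 1 was called with the block. Cd63, a tetraspanin of late endosomes, lysosomes and exosomes, was at 234, 285, 271 and 220.4 CPM in KO DHT and 329, 382, 412 and 311 CPM in KO DHT+ENZ. It was at 262, 295, 279 and 265 CPM in KO DMSO and 266, 234, 270.3 and 223 CPM in WT DMSO. The ENZ libraries stood above the 12 others. Cd63 rose with the block (0.50, SE 0.07; edgeR adjusted p = 0.00219, against 0.071 when the block was omitted).

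Cln3 was at 8.68, 8.8, 10.53 and 7.93 CPM in KO DHT and 11.1, 10.8, 11.1 and 10.9 CPM in KO DHT+ENZ, but KO DMSO libraries had been as high, at 9.42, 11.2, 10.8 and 10.9 CPM, and WT DMSO was at 10.4, 8.63, 9.71 and 9.77 CPM. Mcoln1 was at 56.6, 56.3, 53.4 and 55.4 CPM in KO DHT+ENZ, above the KO DHT and KO DMSO values given before, and at 59.2, 43.3, 47.8 and 51.6 CPM in WT DMSO, where replicate 1 was higher than any ENZ library. Neither passed, with 0.29 (SE 0.10) for Cln3 and 0.24 (SE 0.09) for Mcoln1 against KO DHT. Lamp1 (0.26, SE 0.10) and Lamp2 (0.28, SE 0.16), the main glycoproteins of the lysosomal membrane, were higher in all ENZ libraries than in any KO DHT library, at 775 to 857 against 666 to 696 CPM and 326 to 375 against 255 to 311 CPM. They did not pass with the block (adjusted p = 0.128 and 0.392, edgeR). Scarb2, the carrier of glucocerebrosidase, was at 0.13 (SE 0.09).

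Grn encodes progranulin, a secreted protein that lysosomal proteases cut into granulins. It was at 139, 147, 162 and 106 CPM in KO DHT and 156, 173, 168 and 151 CPM in KO DHT+ENZ, with 140.5, 139.9, 186 and 120.3 CPM in KO DMSO and 172, 156, 138 and 129 CPM in WT DMSO. The groups overlapped, although ENZ was higher in each pair, by 0.05 in pair 3 and 0.51 in pair 4. It did not pass: the fold change was 0.23 (SE 0.14) without the block, and the adjusted p was 0.232 with it (edgeR).

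How many members were called in this comparison depended on the libraries used. With WT DMSO replicate 1 left out of the fit, although this comparison does not involve it, 5 were called (0.673% of all genes) and 21 with the block (8.59% of all genes). DESeq2 called 8 (0.599% of all genes). Leaving out any 1 of the 8 libraries compared left 0 or 1 in edgeR without the block, 1 only without ENZ replicate 1 (Ctsl) or 3 (Gaa), and 6 to 9 with it. With the block 6 members, Arsa, Cd63, Ctsl, Gaa, Hexa and Npc2, were past the threshold in all 8 such fits. These fits share most of their libraries and the list was made with this comparison in view, so this is a description. Without the filter on low counts 0 members were called. Transcript length had rank correlations of 0.20, -0.59, -0.30 and -0.35 with the log2 difference in pairs 1 to 4, and with those trends removed the same 10 members were called with the block.

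KO DHT+ENZ was also set against KO DMSO, the antagonist with androgen against vehicle. This comparison shares the ENZ libraries with the comparison above, and its values are given beside those for that reason only. Without the block 1 of 42 members was past the threshold, Gaa, again as a description, where 0.253% of all genes were called and 0.053% were called higher. DESeq2 called 2 (0.516% of all genes). With the block 6 were called, all higher, where 2.94% of all genes were called and 0.854% were called higher. These were Cd63 (0.37, SE 0.07), Ctsl (0.43, SE 0.06), Gaa (0.39, SE 0.07), Hexa (0.33, SE 0.08), Npc2 (0.36, SE 0.06) and Tpp1 (0.34, SE 0.08).

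Over the list the median log2 fold change against KO DMSO was 0.12 with 33 of 42 above 0, and 0.01 over all genes tested. Higher in 4 of 4 pairs were 21 members and lower in 4 of 4 were 3, where 16% and 15.6% of all genes were. In 15 members the ENZ libraries lay above all KO DMSO libraries (2.92% of all genes). Asah1 (0.35, SE 0.10; adjusted p = 0.0715), Ctsd (0.21; adjusted p = 0.0897), Ctsa (0.18; adjusted p = 0.14) and Arsa (0.22; adjusted p = 0.102) did not pass here with the block in edgeR. The same 4 genes had values below 0 in KO DHT against KO DMSO, from -0.05 for Ctsd to -0.13 for Arsa, none of which passed. The comparisons share libraries, so these values follow in part from how the 4 genes were picked. In KO DHT against KO DMSO 33 of the 42 members were below 0.

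Fuca1, which takes fucose from glycoproteins, was lower than in KO DMSO in each pair, by 0.13 to 0.29, and did not pass (-0.23, SE 0.07; adjusted p = 0.101 with the block, edgeR). It was at 81.3, 106, 116 and 81.5 CPM in KO DMSO and 67, 97.2, 95.3 and 69.5 CPM in KO DHT+ENZ, where replicates 2 and 3 were the higher ones in each group. Without WT DMSO replicate 1 the counts were 4 without the block (0.569% of all genes) and 17 with it (7.24% of all genes), 16 higher and 1 lower, which was Fuca1. In edgeR, leaving out 1 library of the 8 compared left 0 or 1 without the block (Gaa, without ENZ replicate 3). With the block it left 4 to 5. Ctsl, Gaa and Npc2 were past the threshold with the block in all 8 such fits, again as a description.

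Transcript use within members is a measure the list did not rest on. For 12 members with at least 2 transcripts of at least 10% mean share and at least 10 CPM, the share of each of 26 transcripts was compared between groups, 104 comparisons in all. By exact two-sided permutation tests of 4 libraries against 4, which can go no lower than p = 0.0286, 1 share was under 0.05 unadjusted and 0 passed (smallest adjusted p = 0.885). Over 104 comparisons, an adjusted p under 0.05 would need most shares to lie at that lowest value. That 0 passed therefore says little about single transcripts. That 1 was Psap-205, one of the coding transcripts of Psap, which held 44.3%, 45.8%, 42.4% and 46.5% of Psap counts in KO DHT+ENZ and 37.5% to 42.1% in KO DMSO (exact p = 0.0286). The 4 ENZ shares were above the 4 KO DMSO shares by little, and overlapped those of KO DHT (36.7% to 43.0%).

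Gaa-203, the larger of the coding transcripts of Gaa, held 64.2% ± 9.66 of Gaa counts in KO DHT+ENZ and 64.0% ± 6.98 in KO DHT (SD, n = 4 each; exact permutation p = 0.971). Of Arsa counts, 41.1% ± 6.14 with ENZ and 42.1% ± 6.20 without lay on the retained-intron transcript Arsa-201 (exact permutation p = 0.771). Lamp2-202 held 83.3% ± 0.322 with ENZ and 84.3% ± 1.19 without of Lamp2 (exact permutation p = 0.229), and 61.0% in WT DMSO replicate 1. Since reads of overlapping transcripts are divided by a model, these shares are estimates.

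Other genes of the pathway were taken from lists kept apart from the 42 members and, like them, drawn up with earlier results known. Their counts with ENZ are therefore a description, and fold changes of single genes are given without a test. In KO DHT+ENZ against KO DHT, 17 of 19 V-ATPase genes were above 0 with a median of 0.29, 0 were called without the block and 8 were called higher with it, where 0.0766% and 1.57% of all genes tested were called higher; the same shares belong beside the counts of the lists that follow. The smallest blocked p-values were those of Atp6v0b (0.38, SE 0.08), Atp6v0e (0.39, SE 0.12) and Atp6ap1 (0.36, SE 0.08), a subunit pair of the membrane sector and an accessory protein. Atp6v0b was at 117, 109, 108 and 105 CPM in KO DHT and 145, 146, 149 and 131 CPM in KO DHT+ENZ, so its groups did not overlap. Of 52 tested lysosomal genes outside the list 44 were above 0 (median 0.15), 1 was called without the block and 7 with it, all higher.

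For TFEB, its relatives and the proteins that control them, 16 of 17 tested genes were above 0 (median 0.24), with 0 called without the block and 3 called higher with it. Those were Flcn, the folliculin that acts on Rag GTPases (0.48 with the block), and the Rag GTPase gene Rragd (0.38). The other was Lamtor4, of the complex that anchors Rag GTPases to lysosomes (0.38). Flcn was at 51.2, 42.1, 39.3 and 50.5 CPM in KO DHT and 73.8, 58.4, 51.3 and 73.4 CPM in KO DHT+ENZ, higher in each pair. Against KO DMSO 1 of these genes, Rragd, was called without the block (0.53, SE 0.11), where 0.053% of all genes were called higher.

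For sorting genes of the mannose-phosphate route the median was 0.10, and 20 of 22 were above 0. Of these Tom1, an adaptor of endosomal sorting, was called without the block (0.45, SE 0.08). With the block Tom1 and the retromer gene Vps29 (0.40) were called higher, 2 genes in all. For autophagy genes the median was 0.07, 25 of 32 were above 0, and 0 were called without the block. With the block 3 were called higher, Gabarap (0.40), Gabarapl1 (0.30) and the receptor gene Sqstm1 (0.26), and 0 lower.

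**Figure D5:**
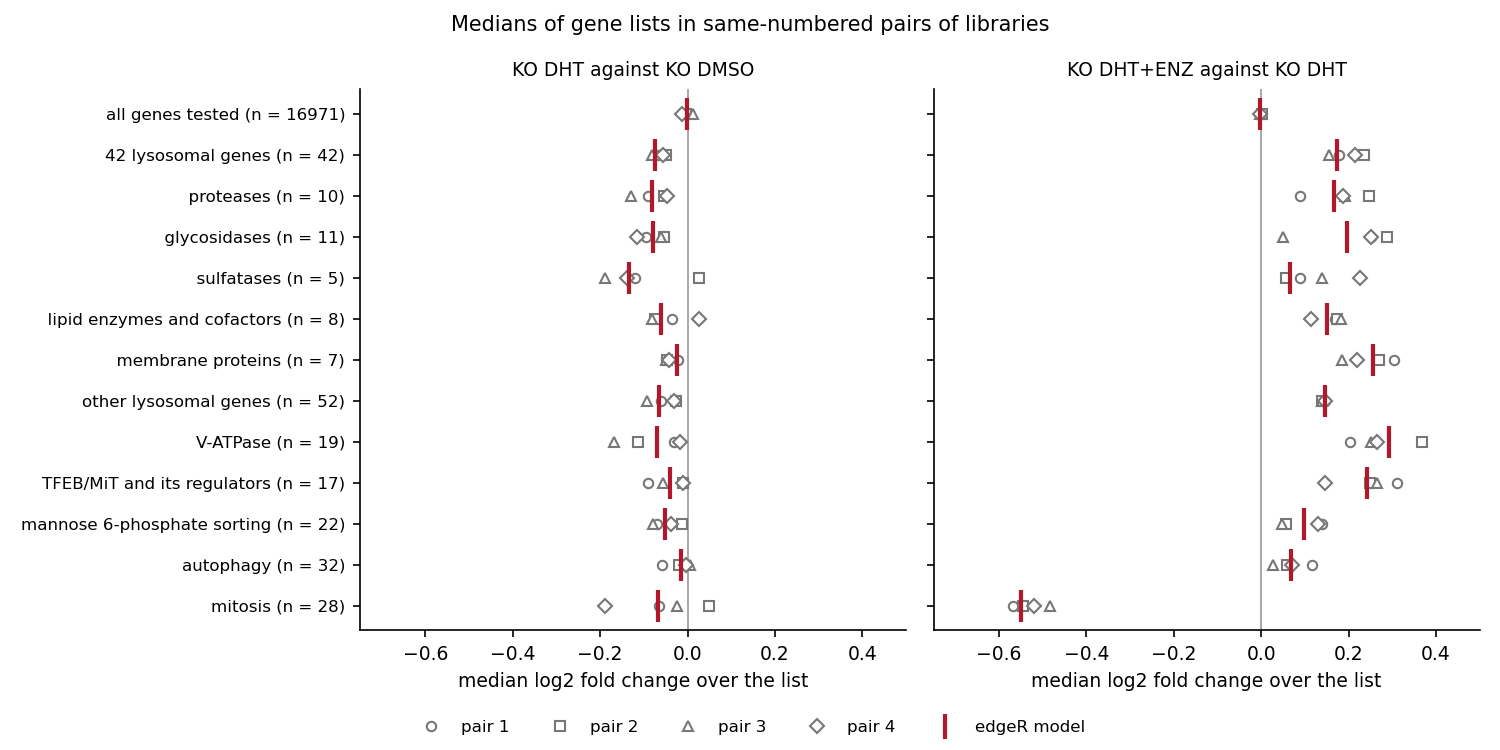
Median log2 fold change (horizontal axis) of each gene list in KO DHT against KO DMSO and in KO DHT+ENZ against KO DHT. Open symbols are medians over the list in same-numbered pairs of libraries and red bars are medians of the edgeR fold changes. With ENZ the 42 members and the other lysosome lists lie to the right of all genes tested in each pair, and mitosis genes lie to the left.

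In the same libraries 28 of 28 mitosis genes had log2 fold changes below 0 with ENZ, with a median of -0.55. Of these 11 were called lower without the block, where 0.189% of all genes were, and 27 with the block, where 1.92% of all genes were. Their summed level was 2070 to 2570 CPM in KO DHT+ENZ, 3030 to 3790 CPM in KO DHT and 3130 to 3720 CPM in KO DMSO. In these bulk cultures, a change in the make-up of the cells and a change in RNA per cell cannot be told apart.

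Microglia express many lysosomal genes, so their markers are given here. Summed over the 13 markers of the microglia list that are not lysosomal genes, the level was 4.51 to 4.8 CPM in KO DHT+ENZ, 4.63 to 6.11 in KO DHT, 4.18 to 6.25 in KO DMSO and 4.17 to 9.29 in WT DMSO. Of these markers 8 stayed under 1 CPM in all 16 libraries, and C1qa, C1qb and Tyrobp were at 0 in all of them. Summed progenitor markers overlapped between groups, at 6940 to 8780 CPM with ENZ and 7210 to 8810 CPM in KO DHT.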

How the data were processed

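The deposited files, 1 per library, give a transcript's estimated count and its TPM (scaled for transcript length and library size), made by the authors with kallisto on GRCm39, per the file headers and the submitters' processing notes; the version, the transcript annotation and trimming are not given in the sources used here. PolyA RNA was sequenced as pairs of 150 bp, per the labels' protocols. Of 146190 transcripts, 135007 matched GENCODE M21 by transcript ID, used for names alone, and held 98.8% to 99.1% of the counts; the others were not used, and 1 listed gene symbol was not matched. Estimated counts were summed for each of 49166 genes and rounded, and deposited TPM were summed likewise.

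The test was edgeR 4.0.16 (R 4.3.3, limma 3.58.1; quasi-likelihood, TMM, filterByExpr, 4 groups in 1 fit, no block) over 16971 genes, with Benjamini-Hochberg adjustment and a threshold of 0.05. Log2 CPM used a prior count of 2. A standard error is the absolute log2 fold change over the square root of F. The biological coefficient of variation was 0.212, and 0.122 with the block. The replicate number was taken to pair libraries from the data, since the labels do not state it (same-numbered libraries also share a code in the deposited files, whose meaning is not given): over 9747 genes of at least 10 CPM, deviations of same-numbered libraries from their group means correlated at 0.155 to 0.791 in the 16 checks, where more than 0.1 was required. Libraries with different numbers were not compared, so the check cannot show that the number is what pairs them. The labels call the replicates biological, from 2 litters, without saying which number came from which, so p-values measure the spread between these cultures. The block treats the 4 numbers as separate.

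The 42 genes and the other lists were chosen with earlier results of these data known. Values of all libraries are given for genes called without the block, for the 3 of each class with the smallest blocked p-values in KO DHT+ENZ against KO DHT, and for progranulin; Ctsh, Ctsd, Neu1, Ctsz, Fuca1, Lipa, Lamp1 and Lamp2 were singled out after their values were seen. Of the other lists, genes called without the block are named or, where there were none, the 3 with the smallest blocked p-values; Vps29 was added after its values were seen, and some genes of those lists are not reported here. Promoters were read from a RefSeq table. The scripts were tested on simulated data, and alternatives used DESeq2 1.42.0 and limma-voom. Shares and figures used Python 3.11.15, pandas 2.3.3, numpy 2.4.6 and matplotlib 3.10.9.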

Additional observations from a re-analysis of the deposited data

Results flagged for a closer look

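In each group of 4 libraries the highest and lowest CPM of each member were compared with the next value by Dixon's ratio. Of 168 groups 8 stood out at its 95% level, and chance alone gives about 1 in 20. Neu1 was at 1180 CPM in WT DMSO replicate 1, where the other 3 libraries were at 27.7 to 31.4 CPM, and at 38.9 CPM in KO DHT+ENZ replicate 4, below the others at 41.7 to 42 CPM. Lipa, the acid lipase, was at 25.3 CPM in WT DMSO replicate 1 (others 41.2 to 42.7 CPM) and at 40.5 CPM in KO DHT replicate 1 (others 42.8 to 43.2 CPM). Among proteases, Ctsb was at 283 CPM in WT DMSO replicate 3 (others 243 to 244 CPM), Ctsd at 724 CPM in KO DHT+ENZ replicate 2 (others 651 to 656 CPM) and Ctsf at 40.5 CPM in KO DMSO replicate 3 (others 33.7 to 34.6 CPM). The sulfatase gene Galns was at 7.8 CPM in KO DMSO replicate 3 (others 6.06 to 6.34 CPM).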

How the results depend on the processing

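The share of all genes called is in brackets. With the replicate block, members called went from 2 to 10 in KO DHT+ENZ against KO DHT (0.265% to 3.48%) and from 1 to 6 against KO DMSO (0.253% to 2.94%). With the block and a length correction they were 10 and 9 (3.61% and 3.5%), and with limma-voom and the block as a random effect 10 and 6 (2.4% and 2.03%). DESeq2 called 8 and 2 (0.599% and 0.516%), edgeR on genes of at least 10 CPM 6 and 3 (1.28% and 0.831%), and edgeR without a filter on low counts 0 and 0 (0.0507% and 0.0269%). From the 8 libraries compared alone, 3 were called against KO DHT (0.301%) and 0 against KO DMSO (0%). The 3 were Asah1, Ctsl and Neu1, and Gaa was not among them. Without WT DMSO replicate 1, which is in neither comparison, 5 and 4 were called (0.673% and 0.569%), and 21 and 17 with the block (8.59% and 7.24%). Leaving out 1 library of those compared gave 0 to 1 in both comparisons (0.0115% to 0.161%, and 0% to 0.27%), and with the block 6 to 9 (0.973% to 2.28%; 7 members in 4 of 8 fits) and 4 to 5 (1.27% to 2.34%). Summing protein-coding transcripts alone gave 4 and 2 (0.443% and 0.379%), and 9 and 6 with the block (3.93% and 3.2%); against KO DHT, Arsa dropped out of the 10 called with the block. The causes of these differences were not tested. In KO DMSO against WT DMSO and KO DHT against KO DMSO 0 members were called under every alternative run. Transcript shares that passed stayed at 0, also at a minimum share of 5%, where the lowest possible exact p again left little room to pass.

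The median log2 fold change kept its sign in every alternative run. In KO DHT against KO DMSO it was -0.037 with block and length correction, -0.0504 for genes of at least 10 CPM, and -0.1127 to -0.039 when 1 library was left out (-0.0914 to -0.0631 with the block, where -0.0903 and -0.0883 came without KO DMSO replicate 1 and 4). Leaving out 1 library gave 0.1542 to 0.2269 for KO DHT+ENZ against KO DHT, 0.0609 to 0.1412 against KO DMSO, and 0.0585 to 0.1427 for KO DMSO against WT DMSO. The block combined with leaving out libraries, and protein-coding transcripts alone, were added after the data had been seen. Gla had 0 estimated counts in WT DMSO replicate 4, a library of 33.4 M, while the other WT DMSO libraries held it at 2.29 to 3.30 CPM. What set this value was not tested.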
